A study of Mus musculus with 36 samples.

Results

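The genes described here are the collagens, laminins and associated matrix proteins of the mouse intestine. They were chosen by name. A gene was a member if its annotated symbol was Col, a number, a and a number, began with Lama, Lamb or Lamc and a number, or with Fbln, Fbn or Nid, or was Eln, Fn1, Sparc, Dcn, Lum or Bgn. Of 15964 genes measured, 63 were members, and they were covered by 116 of 36701 probe sets. Each gene was represented by 1 probe set, which came from array set A for 51 genes, from B for 9 and from C for 3. Where a gene had several on that array set, the brightest was taken. There were 40 collagen chains, 10 laminin chains, 4 fibulins, 2 nidogens, 1 fibrillin and 6 other genes. Levels were followed through 4 segments of the gut, the duodenum, jejunum, ileum and colon. The mice were 8-week-old males of the outbred Hsd:ICR(CD-1) stock on standard chow, without treatment or genetic change, and each segment was represented by 3 pools of 10 mice. The duodenum was the short piece next to the stomach, the jejunum was the middle stretch, the ileum ended at the caecal junction and the colon was taken undivided. Total RNA of the whole wall was measured, so that fewer cells of a type and less RNA per cell cannot be told apart.

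The extracellular matrix of the gut wall has 2 main forms. Fibrillar collagens, collagen VI, proteoglycans and elastic fibres fill the lamina propria, submucosa and muscle layers and are made mostly by fibroblasts and smooth muscle cells. Basement membranes, sheets of laminin and collagen IV joined by nidogen, lie beneath the epithelium and around vessels, muscle cells and nerves, and hold cells through integrins.

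All 12 pools were measured on each of 3 array sets, which gives 36 arrays. The deposited values are intensities that the authors had scaled to a common mean, and array medians ran from 48.7 to 75.2 units for set A, from 85.7 to 110.2 for B and from 85.5 to 104.5 for C. Correlations between pools of a segment were 0.932 to 0.970, 0.859 to 0.915 and 0.817 to 0.904 on these sets. An 18S ribosomal RNA control was low in 4 samples (jejunum 2 and 3, ileum 1 and 3) and high in the other 8. The actin 3′/5′ signal ratio, which follows RNA quality, was lower in the ileum (1.14 to 1.20 on array set A) than in the colon (1.30 to 1.43), jejunum (1.28 to 1.55) and duodenum (1.41 to 1.84). The part of these measures in the results below was not tested beyond the alternatives named. A gene was called where limma, fitted to log2 of the intensity plus 16, gave a Benjamini-Hochberg adjusted p below 0.05 over all probe sets. All tests were 2-sided, n was 3 pools per segment, and p-values reflect only how pools varied. For 25 of the 63 genes the representing probe set stayed under the median of its array set in every segment, and these probe sets may not be above background. In 21 of the 25 all other probe sets of the gene did too, while Col11a2, Col23a1, Col4a4 and Fbn2 had a brighter one on another array set, and no probe set of the 25 genes was called in any comparison. The other 38 exceeded the median in at least 1 segment. Levels of different genes were not compared, since probe sets differ in brightness.

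Most members that differed along the gut were higher in the colon. Between colon and duodenum 11 of 63 members were called, where 9.15% of all genes were, with 9 higher in colon (5.12% of all genes) and 2 lower (4.03%). Against the average of duodenum, jejunum and ileum (the small intestine below) 10 were called, 9 higher and 1 lower, against backgrounds of 11.9%, 6.92% and 4.96%. The median log2 difference over the 63 members was 0.11 for colon minus duodenum and 0.16 for colon minus small intestine, beside 0.06 and 0.05 over all genes. A moderated F test found a difference somewhere along the gut for 11 members, against 13.7% of all genes. The highest mean was in colon for 8 of these 11 and in duodenum, jejunum and ileum for 1 each. Colon held the highest mean in 32 of all 63 members, and the share over all genes was not counted. The members called higher in the colon comparisons were proteoglycans and SPARC, laminin chains and collagens III, IV, V, VI and VIII. Fibulin-1 and the collagen IX chain Col9a1 were called in the opposite direction.

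**Figure D1:**
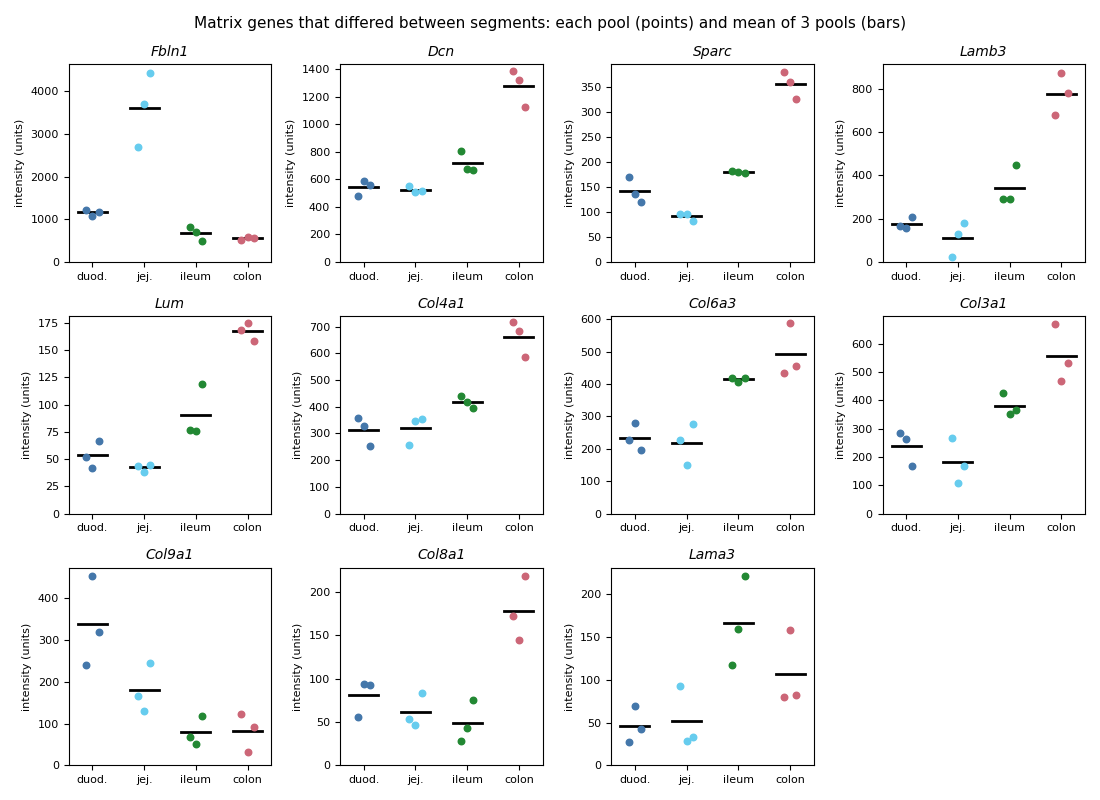
Intensity (linear units, from 0) of the 11 matrix genes with a difference between segments by the F test, in 4 segments from duodenum to colon. Points are pools and bars the means of 3 pools. In 8 panels colon is highest, while Fbln1 peaks in jejunum at a mean of 3606 ± 876 units, Col9a1 in duodenum and Lama3 in ileum.

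Cell type marker lists differed in their course along the gut. Of 11 smooth muscle markers, 10 were called higher in colon than in duodenum and than in the small intestine, with list medians of log2 2.04 and 1.71. Their summed intensity was 30748 to 34951 units in colon pools, against 6796 to 8127 in duodenum, 6744 to 10050.3 in jejunum and 11073 to 14632 in ileum. Of 9 fibroblast markers, Dpt, which encodes the matrix protein dermatopontin, was called higher in colon in both comparisons, and Tcf21 was called by the F test alone (adjusted p = 0.0455). The colon difference was positive for only 6 of the 9 from duodenum (list median 0.53) and for all 9 from the small intestine (0.42). The list sum, in which bright probe sets weigh most, was 947 to 981 units in colon, against 599.7 to 653 in duodenum, 461 to 507 in jejunum and 713 to 892 in ileum. Adiponectin (Adipoq), a product of fat cells, averaged 444 ± 82 units in colon and 38.5 ± 10.8 in duodenum (log2 difference 3.08, adjusted p = 3.33e-05), and the 3 adipocyte markers summed to 737 to 801 units in colon and 211.5 to 414.5 in duodenum. None of 8 endothelial markers was called, with sums of 652 to 779 units in colon and 608 to 764 in duodenum. Of 8 epithelial markers, villin (Vil1) was called lower and Krt18 higher in colon than in duodenum, and the list was bright in all segments, at sums of 38813 to 47006 units in colon, 35806 to 38818 in duodenum, 40052 to 45549 in jejunum and 48323 to 56144 in ileum. All 7 exocrine pancreas markers were called lower in colon than in duodenum, at sums of 574 to 2129 units in colon and 93652 to 94492 in duodenum. The glia and neuron list had 1 of 7 called higher in colon than in duodenum (Snap25) and 2 of 7 than in the small intestine (with Gfap). Of 6 leucocyte markers none was called against duodenum and 2 (Cd3e and Csf1r) were lower in colon than in the small intestine, at list sums of 408 to 543 units in colon, 517 to 755 in duodenum, 556.5 to 754.5 in jejunum and 716 to 1137 in ileum. None of 4 mesothelial markers was called in either comparison. The part of these cell types in the matrix differences was not tested.

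**Figure D2:**
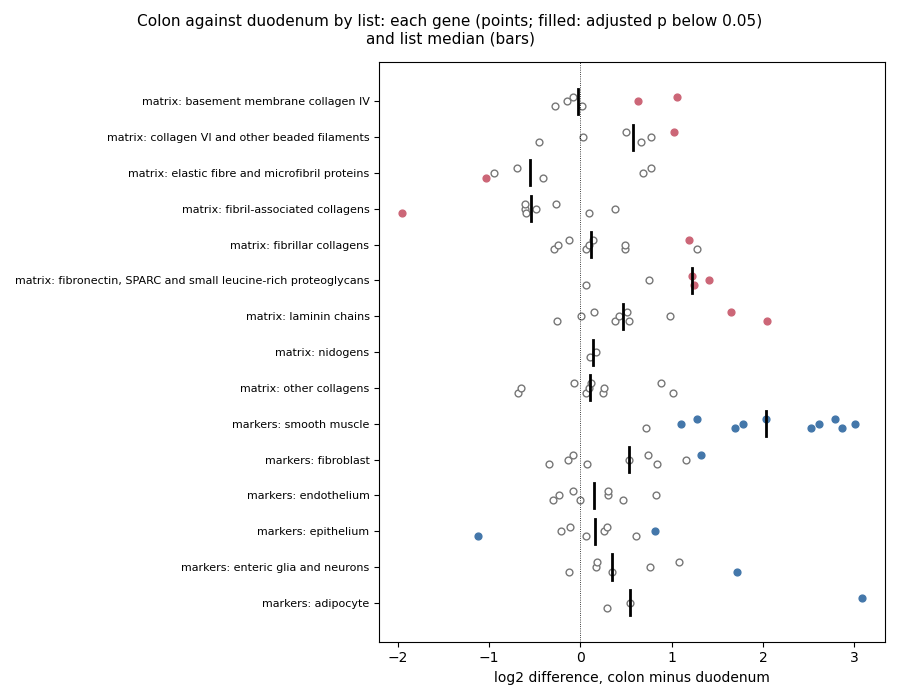
Log2 difference in intensity, colon minus duodenum, of each matrix gene by class (upper 9 rows) and of each gene of 6 marker lists (lower 6 rows). Filled points were called at an adjusted p below 0.05 and bars are list medians. Smooth muscle markers have the highest list median, 2.04, while the matrix classes have medians from -0.56 to 1.22.

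Among SPARC, fibronectin and the small leucine-rich proteoglycans, 3 of 5 genes were higher in colon than in duodenum and than in the small intestine. These were Dcn, Lum and Sparc, while Fn1 and Bgn were not called. Decorin (Dcn), a proteoglycan that binds collagen fibrils, had 1389, 1322 and 1128 units in the colon pools, against 481, 584 and 556 in duodenum, 550, 505 and 517 in jejunum and 803, 674 and 668 in ileum. No small-intestinal pool reached the lowest colon pool. The log2 difference was 1.22 from duodenum (0.15 SE, adjusted p = 6.62e-05), 1.10 from the small intestine (0.12 SE, adjusted p = 1.84e-05) and 0.83 from ileum alone (0.15 SE, adjusted p = 0.00376), and these calls held under every alternative tried. Dcn has 1 probe set, so the choice of probe set could not test them. Colon pools were apart from duodenal pools in 27 of all 63 members and from all small-intestinal pools in 17, in either direction. Such separation, here and below, is not separate support for a call, and its share over all genes was not counted.

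Lumican (Lum), the related proteoglycan encoded beside Dcn on chromosome 10, also peaked in colon. Its pools were at 169, 174 and 158 units in colon, against 51.7, 42.2 and 66.3 in duodenum, 44, 38.5 and 44.5 in jejunum and 76.8, 75.8 and 119 in ileum. Again the colon pools stood above all others, and the duodenal and jejunal means lay under the median of the array set, 66.3 units. Lum was higher in colon by log2 1.41 than in duodenum (0.27 SE, adjusted p = 0.00389) and by 1.29 than in the small intestine (0.22 SE, adjusted p = 0.00124).

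SPARC, a calcium-binding glycoprotein that attaches to collagen, is encoded on chromosome 11. Its promoter is shown, with those of Col3a1 and Fbln1 further on, so that genes with colonic and jejunal peaks can be compared. The sequence is the 250 bases before the annotated start in RefSeq's GRCm38.p6 table, on the minus strand at chr11:55420081-55420330, and it is in lower case throughout because it held none of the motifs searched for.
Sparc promoter: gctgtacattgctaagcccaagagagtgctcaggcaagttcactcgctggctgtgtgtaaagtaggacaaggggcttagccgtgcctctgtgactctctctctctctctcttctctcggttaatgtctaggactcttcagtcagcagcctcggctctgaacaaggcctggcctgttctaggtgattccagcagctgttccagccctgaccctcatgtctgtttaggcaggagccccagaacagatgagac
Sparc had 379.7, 359.7 and 325 units in colon, against 169, 135 and 119 in duodenum, 96.2, 96.5 and 81.2 in jejunum and 182, 179 and 178 in ileum. The pools of the 4 segments did not overlap, with jejunum lowest, then duodenum, ileum and, well above, colon. The log2 difference was 1.25 from duodenum (0.19 SE, adjusted p = 0.000734) and 1.32 from the small intestine (0.16 SE, adjusted p = 4.91e-05). A second probe set of Sparc, on array set B, averaged 20.5 ± 10.4 units in colon and 9.73 ± 2.79 in duodenum, far under that set's median, and was not called (-0.04 against the small intestine, adjusted p = 0.969).

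Fibronectin (Fn1), the integrin-binding glycoprotein of interstitial matrix, averaged 496 ± 37.7 units in colon and 297 ± 89.2 in duodenum (SD, n = 3 each), and its difference was not called (0.75, 95% interval 0.27 to 1.22, adjusted p = 0.0662). Biglycan (Bgn), the closest relative of decorin, was not called. It averaged 695 ± 87.9 units in colon, 679 ± 191 in duodenum, 685 ± 291 in jejunum and 697 ± 164 in ileum, and the colon minus small intestine difference was 0.06 with a 95% interval of -0.42 to 0.54. Its other 2 probe sets were not called either.

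Laminin chains combine as 1 alpha, 1 beta and 1 gamma chain. Of 10 measured chains, 9 had a positive colon minus duodenum difference and 2 of them, Lamb3 and Lamb2, were called higher in colon (class median log2 0.47), where 54.5% of all genes had a positive difference and 5.12% were called higher. Against the small intestine, Lamb3 alone was called. Lamb3 encodes the beta 3 chain, which joins Lama3 and a gamma 2 chain in the laminin that anchors epithelia through hemidesmosomes, and it had the largest colon difference of all 63 members. Its pools held 677, 870.2 and 782 units in colon, against 164, 158 and 208 in duodenum, 25.1, 130 and 178 in jejunum and 289.6, 290.1 and 448 in ileum. Colon lay above every other pool and ileum above every duodenal and jejunal pool, with jejunum 1 the lowest of all. The log2 difference was 2.04 from duodenum (0.41 SE, adjusted p = 0.00606) and 2.04 from the small intestine (0.34 SE, adjusted p = 0.000933). A second Lamb3 probe set on the same array set gave 1.97 and 1.98 (adjusted p = 0.00616 and 0.000894).

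The partner chain Lama3 peaked in another segment. It had 118, 159 and 221 units in ileum, against 92.5, 28.7 and 33.3 in jejunum, 27, 69.9 and 42.2 in duodenum and 80.3, 159 and 81.7 in colon. Every ileal pool exceeded every duodenal and jejunal pool, and ileum and colon overlapped. Lama3 differed along the gut by the F test (adjusted p = 0.0417), but none of the segment comparisons tested was called, and ileum minus duodenum was not among these. The ileum minus jejunum difference was 1.51 (adjusted p = 0.0596). The gamma 2 chain was not analysed here.

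Lamb2 encodes the beta 2 chain, found in muscle, nerve and vessel basement membranes. Its probe set on array set A held 121, 74.6 and 74 units in colon and 8.80, 10.1 and 40.4 in duodenum, without overlap and, in duodenum, below the array set median of 66.3. The call in colon minus duodenum (1.64, 0.43 SE, adjusted p = 0.0353) was lost without any one of duodenum 1, duodenum 2 or the 3 colon pools (adjusted p 0.0744 to 0.149), with arrays centred on their median (1.49, 0.0762) and with quantile normalization (1.52, 0.0783). With an offset of 64 in place of 16 it was 0.88 (adjusted p = 0.0350). Probe sets of Lamb2 on the other array sets did not show it, with -0.14 on array set B (adjusted p = 0.892) and -0.41 and -0.09 on C. The widely expressed chains of basement membranes around epithelium, muscle and vessels were not called. Lama5 averaged 141 ± 30.9 units in colon and 108 ± 50.8 in duodenum, Lamb1 169.5 ± 14.9 and 116 ± 36.9, and Lamc1 126 ± 71.8 and 92.2 ± 44.8. For Lamb1 all 3 colon pools exceeded all small-intestinal pools, and the difference from the small intestine was 0.73 (95% interval 0.25 to 1.21, adjusted p = 0.0666). Lama4, the alpha chain of vessel laminin, averaged 166 ± 13.3 units in colon and 114 ± 30 in duodenum, and Lama2, the alpha chain of muscle laminin, 44.9 ± 12 and 38.5 ± 7.27. Lama1 and Lamc3 stayed under the array set medians.

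Collagen IV forms the network of basement membranes, mostly from 2 alpha 1 chains and 1 alpha 2 chain. Col4a1 and Col4a2 are encoded head to head on chromosome 8, and their RefSeq starts in GRCm38.p6 overlap by 22 bases, at chr8:11312805-11312826. The shared stretch is shown because both chains were called higher in colon than in duodenum, and it reads on the plus strand. The capitals mark GGGCGG, one of the motifs searched for, which here lies after both starts and so outside the promoter windows counted further on.
Shared start of Col4a1 and Col4a2: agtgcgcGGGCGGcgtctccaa
Col4a1 had 716, 683 and 587 units in colon, against 357, 329 and 251 in duodenum, 258, 347 and 355 in jejunum and 442, 417 and 396 in ileum. Col4a2 had 609.6, 641 and 605 units in colon, against 393, 458 and 343 in duodenum, 466, 341 and 477 in jejunum and 538, 557 and 477 in ileum. For both genes each colon pool was above each small-intestinal pool, by a wider margin for Col4a1. Col4a1 was higher in colon by log2 1.05 than in duodenum (0.18 SE, adjusted p = 0.00156) and by 0.91 than in the small intestine (adjusted p = 0.000822). The difference of Col4a2 from duodenum was 0.63 (0.17 SE, adjusted p = 0.0403), and that from the small intestine was not called (0.46, adjusted p = 0.0555). The Col4a2 call was lost without duodenum 1, duodenum 3, ileum 1, ileum 3 or any one colon pool (adjusted p 0.0534 to 0.168). The call was also lost with arrays centred on their median (0.47, adjusted p = 0.172), with quantile normalization (0.58, 0.0511), without the intensity trend (adjusted p = 0.0906) and by a probe set on array set C (0.83, 0.527). The probe sets representing Col4a3, Col4a4, Col4a5 and Col4a6 stayed under the array set medians, with means of 6.57 to 36.1 units in all segments, while another for Col4a4, on array set C, had 83.4, 73.8 and 176 units in colon and 18.2, 81.7 and 155 in duodenum without a call. Both nidogens, which tie laminin to collagen IV, did too, Nid1 at 24.3 ± 5.45 units in colon and 20.2 ± 7.85 in duodenum and Nid2 at 6.63 ± 5.95 and 4.70 ± 2.84.

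Fibrillar collagens form the tensile fibres of the submucosa. Of 10 measured chains, 1 was called higher in colon than in duodenum (Col3a1) and 2 higher than in the small intestine (Col3a1 and Col5a2), and none lower. The shares of all genes called higher were 5.12% and 6.92%. Col3a1, the sole chain of collagen III, lies on chromosome 1, and its promoter is shown as that of a fibrillar gene with a colonic peak. The 250 bases before its start are on the plus strand of GRCm38.p6 at chr1:45311288-45311537, and the capitals mark the single motif found, TATAAA, whose first base lies 117 bases before the start.
Col3a1 promoter: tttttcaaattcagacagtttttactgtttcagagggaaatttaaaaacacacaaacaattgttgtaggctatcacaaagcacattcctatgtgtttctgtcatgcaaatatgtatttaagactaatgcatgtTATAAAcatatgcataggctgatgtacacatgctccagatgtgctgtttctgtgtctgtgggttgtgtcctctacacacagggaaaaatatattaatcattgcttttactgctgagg
Col3a1 had 670, 467 and 532 units in colon, against 285, 265 and 167 in duodenum, 268, 108 and 167 in jejunum and 426, 351 and 367 in ileum. The colon pools lay above all others and the ileal pools above all duodenal and jejunal ones. The log2 difference was 1.18 from duodenum (0.27 SE, adjusted p = 0.0160) and 1.10 from the small intestine (0.22 SE, adjusted p = 0.00518). The first call was lost without duodenum 3, colon 1 or colon 3 (adjusted p 0.0519 to 0.0869) and the second without colon 1 (0.0546). Neither of the other 2 Col3a1 probe sets was called in these comparisons. One, under the array set median, gave 1.12 from duodenum (adjusted p = 0.0566) and 0.84 from the small intestine (adjusted p = 0.0710), and the other gave 0.51 (adjusted p = 0.569) and 0.87 (adjusted p = 0.106).

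Col5a2, the collagen V chain that mixes into collagen I and III fibrils, is the neighbour of Col3a1 on chromosome 1. It had 191, 129 and 172 units in colon, against 106, 76.6 and 19.2 in duodenum, 51.1, 28.8 and 37.2 in jejunum and 64.5, 34.4 and 80.2 in ileum. Colon was separate from the rest, whose means lay near or below the array set median. The difference from the small intestine was 1.42 (0.34 SE, adjusted p = 0.0165), lost without colon 1 or colon 3 (adjusted p 0.0903 to 0.106), and among the 8 high-18S samples (1.50, adjusted p = 0.0592), and probe sets on array sets B and C gave 0.30 and -0.05 without a call.

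For collagen I, the main fibre of the gut wall, the answer differed between probe sets of the same chain. Col1a1 by its brightest probe set averaged 543 ± 19.5 units in colon, 383 ± 36.5 in duodenum, 378 ± 119 in jejunum and 409.8 ± 71.4 in ileum, and was not called (0.48 against the small intestine, adjusted p = 0.135). A second, dimmer one had 538, 504 and 498 units in colon, against 270.3, 262 and 194 in duodenum, 165, 129 and 220 in jejunum and 401, 251 and 233 in ileum. By both probe sets every colon pool lay above every small-intestinal pool, and by the dimmer one the difference was called (1.13, adjusted p = 0.00116). Col1a2 was likewise called by its dimmer probe set only. Its brightest probe set had 721, 961 and 712 units in colon and 539.9, 989 and 803 in duodenum, with pools that overlapped widely (0.16 against the small intestine, 95% interval -0.45 to 0.77). The dimmer one had 518, 363 and 412 units in colon and 235, 247 and 188 in duodenum, apart from each other, and was called (0.84 against the small intestine, adjusted p = 0.0103). Both chains of collagen I were thus higher in colon by 1 probe set and not called by the other. Col5a1, the other main collagen V chain, was also called by a dimmer probe set (means 95 ± 3.61 in colon and 25.7 ± 8.40 in duodenum, 1.43, adjusted p = 0.00922), and not by its brightest (0.49, adjusted p = 0.257). The probe sets representing Col2a1, Col11a1, Col11a2 and Col27a1 stayed under the array set medians. Another Col11a2 probe set, on array set C, was above it in all 4 segments, at 258 ± 24.8 units in colon and 198 ± 122 in duodenum (0.49, adjusted p = 0.692), and Col5a3 averaged 124 ± 33.8 units in colon and 141 ± 59 in duodenum without a call.

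**Figure D3:**
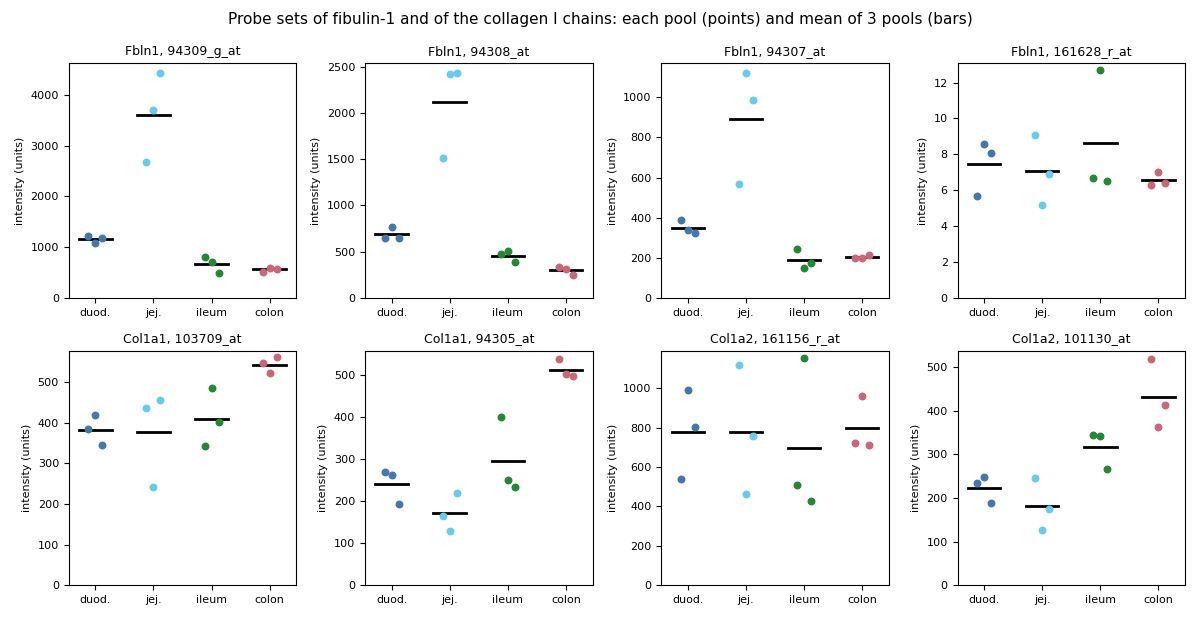
Intensity (linear units, from 0) by segment for 4 probe sets of Fbln1 and 2 each of Col1a1 and Col1a2. Points are pools and bars means of 3 pools. In the upper row the first 3 Fbln1 probe sets peak in jejunum and the last stays under 13 units. In the lower row each collagen I chain has a colonic peak in its right-hand, dimmer probe set, while the pools of the left-hand Col1a2 probe set overlap.

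Collagen VI forms beaded filaments between fibrils and basement membranes from 3 chains. Its alpha 3 chain, Col6a3, had 434, 588 and 457 units in colon, against 227, 279 and 196 in duodenum, 226, 149 and 277 in jejunum and 418, 406 and 419 in ileum. The pools formed a low pair of segments, duodenum and jejunum, and a high pair, colon and ileum. The log2 difference was 1.03 from duodenum (0.22 SE, adjusted p = 0.00849) and 0.80 from the small intestine (0.18 SE, adjusted p = 0.00914), and both calls were lost without colon 2 (adjusted p 0.0557 and 0.0911). A second Col6a3 probe set, on array set C, had overlapping pools and was not called, with 0.70 (adjusted p = 0.259) and 0.53 (adjusted p = 0.283). The neighbouring genes Col6a1 and Col6a2 on chromosome 10 had positive differences that were not called. Col6a1 averaged 730.5 ± 75.6 units in colon and 454 ± 20.4 in duodenum (0.66, 95% interval 0.16 to 1.17), and Col6a2 552 ± 167 and 312 ± 80.7 (0.78, 95% interval 0.16 to 1.40). Col6a4 ran the other way on array set C, at 442 ± 87.8 units in colon and 609.5 ± 127 in duodenum (-0.45, adjusted p = 0.481). Col6a6 and Col26a1 stayed under the array set medians.

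Among the remaining network, multiplexin, anchoring and transmembrane collagens, 1 of 10 was called, higher in colon than in the small intestine, where 6.92% of all genes were. Col8a1, a chain of the short-chain collagen VIII network best known from vessel walls and corneal membranes, had 172, 144 and 219 units in colon, against 56, 93.5 and 92.4 in duodenum, 53.9, 46.4 and 83.7 in jejunum and 28.2, 43.5 and 75.6 in ileum. Its colon pools stood above all the rest, and ileum and jejunum lay under the array set median. It was higher than in the small intestine by log2 1.33 (0.27 SE, adjusted p = 0.00517), and this call was lost without colon 3 (adjusted p = 0.0592). Col15a1, a basement membrane multiplexin, averaged 115 ± 17.7 units in colon and 55.5 ± 13.7 in duodenum, and missed the threshold (0.88, adjusted p = 0.0805). Col18a1, the source of endostatin, averaged 249.8 ± 44.2 units in colon, 266 ± 68.9 in duodenum, 378 ± 76.5 in jejunum and 271 ± 76.9 in ileum. Col7a1, the collagen of anchoring fibrils, averaged 73.9 ± 34.3 units in colon and 117 ± 12.2 in duodenum, without overlap and without a call (-0.65, adjusted p = 0.298). The probe sets representing Col8a2, Col10a1, Col13a1, Col17a1, Col23a1 and Col25a1 stayed under the array set medians. A further one for Col23a1, on array set C, averaged 56.7 ± 8.47 units in colon and 171 ± 55.6 in duodenum, without overlap and without a call (-1.32, adjusted p = 0.0974).

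The fibril-associated collagens, which decorate the surface of larger fibrils, held 1 of the 2 genes that were lower in colon than in duodenum. Col9a1, a chain of collagen IX best known from cartilage, had 122, 30.8 and 92 units in colon, against 240.3, 452 and 320.4 in duodenum, 166, 131 and 246 in jejunum and 68.9, 51.7 and 118 in ileum. The duodenal pools were separate from the colonic and ileal ones, and jejunum lay between. The log2 difference from duodenum was -1.95 (0.39 SE, adjusted p = 0.00585), and that from the small intestine was not called (-1.04, adjusted p = 0.0653). A probe set on array set B, at 19.6 ± 12.9 units in colon and 14.8 ± 15.1 in duodenum, did not show it (0.24, adjusted p = 0.874). The duodenal pools also had the high pancreatic marker signal given above, whose part in the Col9a1 value was not tested. Of the other 2 collagen IX chains, Col9a2 averaged 136 ± 44.3 units in colon and 213 ± 62.9 in duodenum and Col9a3 107 ± 36.5 and 98.3 ± 27.1, and neither was called. Col14a1 was not called by its probe set on array set A (-0.61), while one on array set B differed along the gut by the F test, with ileum lowest (means 136 ± 43.4 in duodenum, 103 ± 37.4 in jejunum, 23.2 ± 6.02 in ileum and 45.9 ± 25.9 in colon, adjusted p = 0.0281). Col16a1 averaged 157 ± 25.6 units in colon and 117 ± 3.73 in duodenum without a call, and Col12a1, Col19a1 and Col22a1 stayed under the array set medians.

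Fibulin-1 (Fbln1), a calcium-binding glycoprotein of elastic fibres and basement membranes encoded on chromosome 15, was the only member with a jejunal peak by the F test. Its promoter is shown for contrast with those of the colonic genes. The window is on the plus strand of GRCm38.p6 at chr15:85205699-85205948, before the more upstream of 2 annotated starts, and none of the motifs searched for was in it, so no letter is in capitals.
Fbln1 promoter: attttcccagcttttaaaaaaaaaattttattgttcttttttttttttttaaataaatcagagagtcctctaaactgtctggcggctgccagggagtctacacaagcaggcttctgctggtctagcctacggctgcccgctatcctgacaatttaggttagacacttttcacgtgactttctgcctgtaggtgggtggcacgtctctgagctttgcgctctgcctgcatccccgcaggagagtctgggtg
Fbln1 had 2685, 3703 and 4429.9 units in the jejunal pools, against 1226, 1078 and 1176 in duodenum, 810.3, 701 and 492 in ileum and 517, 592 and 567 in colon. Every jejunal pool was above every other, duodenum came second without overlap, and ileum and colon overlapped. The log2 difference was 1.60 for jejunum minus duodenum (0.20 SE, adjusted p = 0.000478), -2.40 for ileum minus jejunum (0.20 SE, adjusted p = 8.13e-06) and -1.03 for colon minus duodenum (0.20 SE, adjusted p = 0.00437). Against the small intestine as a whole it was -1.29 (adjusted p = 7.56e-05), and ileum pool 3 lay below all colon pools. The colon minus duodenum difference was not called by a dimmer probe set (-0.73, adjusted p = 0.0951), which gave -0.86 against the small intestine (adjusted p = 0.0110). This was 1 of 3 probe sets besides the representing one. The brightest of the 3 had 1512, 2422 and 2426 units in jejunum and 643, 761 and 649 in duodenum. The next, which is the dimmer one just named, had 568, 1121 and 987 in jejunum and 387, 338 and 325 in duodenum. Both had the same jejunal peak (jejunum minus duodenum 1.58 and 1.26, adjusted p = 0.000485 and 0.0170), and the last stayed under 13 units in every pool. Jejunum 2 and 3 are samples with low 18S signal and jejunum 1 is one with high signal. Jejunum 1 was the lowest of the 3 jejunal pools and lay above all duodenal pools. The part of the 18S class in the jejunal values was not tested beyond the alternatives named.

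The other elastic fibre genes were not called. Elastin (Eln), the rubber-like core of elastic fibres, averaged 285 ± 44.9 units in colon, 163 ± 46.8 in duodenum, 252 ± 74.4 in jejunum and 249 ± 66.7 in ileum (0.77 for colon minus duodenum, 95% interval 0.20 to 1.35). Fbln2, found in vessel walls and basement membranes, averaged 155 ± 12.3 in colon and 92.5 ± 23.6 in duodenum (0.68, adjusted p = 0.171). Fbln5, needed for elastic fibre assembly, averaged 136 ± 89.5 and 236 ± 146, and its pools ranged widely. The probe sets representing Fbln7 and the fibrillin Fbn2 stayed under the array set medians, while another for Fbn2, on array set B, averaged 84.5 ± 29 in colon and 133 ± 129 in duodenum without a call.

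Between neighbouring segments fewer members were called. For jejunum minus duodenum Fbln1 was the only one, 1 of 63 members where 1.50% of all genes were called (0.639% higher and 0.858% lower in jejunum), and its call held under every alternative tried. Between ileum and jejunum 5 of 63 were called (4.48% of all genes), 4 higher in ileum (2.46%) and 1 lower (2.02%). Fbln1 was the lower one, and the higher ones were Lamb3 (1.74, adjusted p = 0.0340), Col3a1 (1.09, 0.0474), Col6a3 (0.92, 0.0331) and Sparc (0.87, 0.0268). In these 4 genes the ileal and jejunal pools did not overlap. This held for 16 of all 63 members and is not separate support for the calls. The share over all genes was not counted. Of the 11 genes called by the F test, 6 had their lowest mean in jejunum, beside 22 of all 63 members. The 4 rises depended on processing. Centring arrays on their median put the median of all probe sets at -0.11 in place of 0.06 for ileum minus jejunum. Only Fbln1 was then called, and 525 of all genes were, beside 715 in the main fit. Leaving out any one ileal pool ended the calls for Col3a1, Col6a3 and Lamb3, and leaving out ileum 1 or 3 that for Sparc. Calls were also lost without jejunum 2 (Col3a1, Col6a3, Sparc), jejunum 3 (Col3a1, Sparc), duodenum 1 or 2 (Col3a1), colon 3 (all but Sparc) and colon 1 or 2 (Col3a1, Lamb3), the duodenal and colonic pools acting through the shared spread. The highest adjusted p without one pool was 0.172 for Col3a1, 0.121 for Col6a3, 0.157 for Lamb3 and 0.09995 for Sparc. Without jejunum 1 the value of Lamb3 was 1.06 (adjusted p = 0.0203). Among the 8 high-18S samples, which hold 1 jejunal and 1 ileal pool, Col3a1 was 0.37 (adjusted p = 0.889) and Lamb3 2.90 (0.00777), with the spread taken from the other segments. Between these segments smooth muscle markers had a median of 0.71 (3 of 11 called higher in ileum), fibroblast markers of 0.72 (none of 9), adipocyte markers of 0.92 (none of 3) and leucocyte markers of 0.49 (2 of 6, Ptprc and Cd79b).

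Between colon and ileum 3 of 63 members were called, all higher in colon, where 5.22% of all genes were called, 2.49% higher and 2.74% lower. They were Col8a1 (1.63, 0.33 SE, adjusted p = 0.0105), Sparc (0.92, 0.19 SE, adjusted p = 0.0137) and Dcn, given above. Pools of colon and ileum were apart for all 3 genes, as for 22 of all 63 members, which is not separate support for the calls. The call for Col8a1 was lost without ileum 1 or colon 3 (adjusted p 0.0567 to 0.0716) and that for Sparc without ileum 3, colon 1 or colon 2 (0.0538 to 0.0821). Both were also lost among the high-18S samples (adjusted p = 0.0523 and 0.101), and that for Sparc with 18S class as a block (0.89, adjusted p = 0.0554) and by its probe set on array set B (0.26, adjusted p = 0.886). Smooth muscle markers had a median of log2 1.33 here with 8 of 11 called higher in colon, and glia and neuron markers 0.93 with 2 of 7 higher. Leucocyte markers had a median of -0.81 with 2 of 6 called lower (Cd79b and Csf1r), and 1 of 3 adipocyte markers, Adipoq, was higher.

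**Figure D4:**
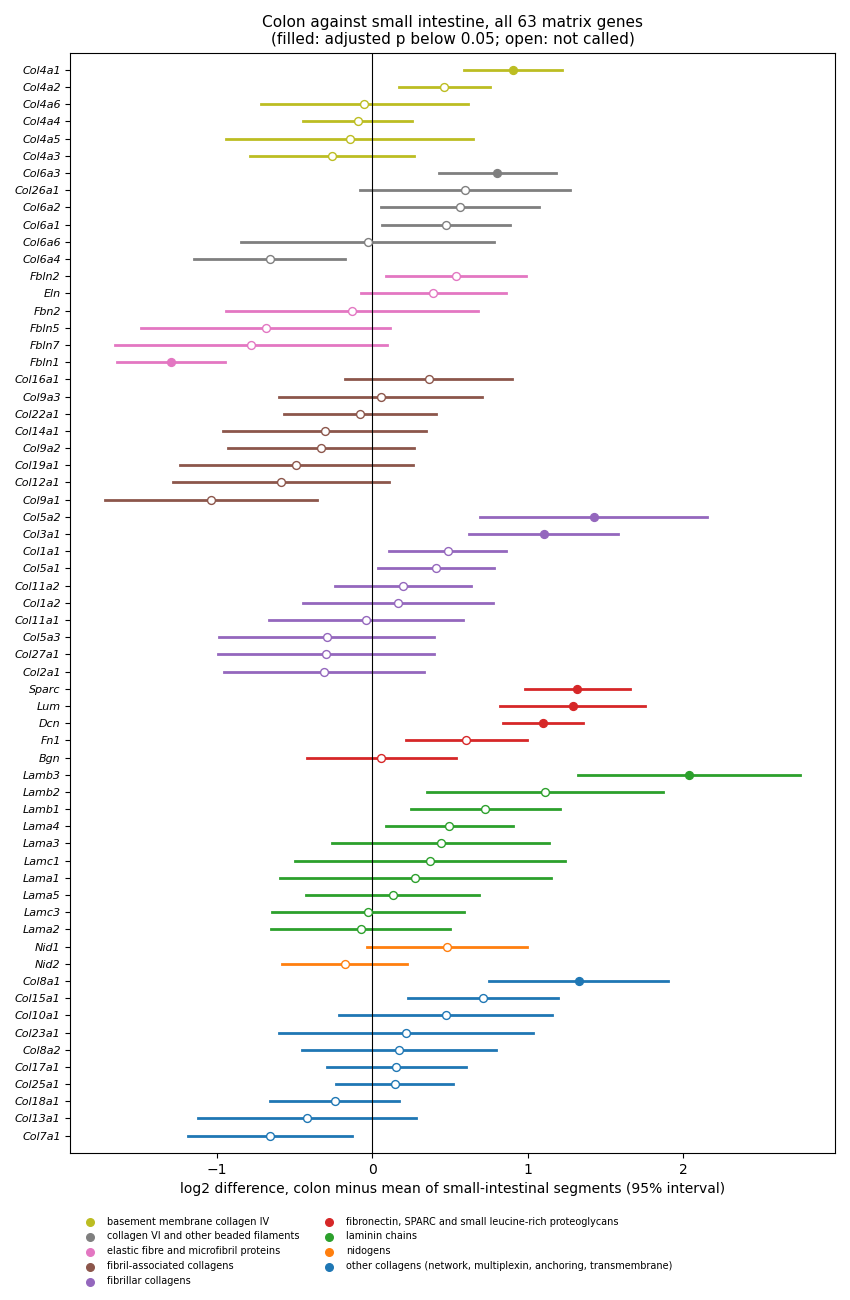
Log2 difference in intensity, colon minus small intestine (average of its 3 segments), for all 63 matrix genes, grouped and coloured by class. Lines are 95% intervals, filled circles were called and open circles were not. Lamb3 lies farthest to the right at 2.04, Fbln1 farthest to the left at -1.29, and most intervals include 0.

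In the GRCm38.p6 gene order 7 pairs of members are next to each other. In 1 pair, Dcn and Lum, both genes were called in colon minus duodenum and in colon minus small intestine. Col4a1 and Col4a2 were both called against duodenum, and Col3a1 and Col5a2 both against the small intestine. Col6a1 with Col6a2, Col4a3 with Col4a4, and Col4a5 with Col4a6 had no call, and of Col9a1 and Col19a1 only Col9a1 was called. RefSeq promoters were matched for 43 of the 63 members, 8 of the 11 called by the F test among them. In the 250 bases before the start, on either strand, GGGCGG was present in 27 of 43 members (62.8%) and in 35.4% of all 27025 genes with a window, CCAAT in 17 (39.5%) and 37.5%, TATAAA in 5 (11.6%) and 14.3%, and TGANTCA in 1 (2.33%) and 7.82%. The 27025 genes include genes that were not measured on the arrays, so these shares come from unlike sets of genes. The motifs do not overlap each other's letters in the windows printed. Among the 8 called genes with a window, 2 held GGGCGG (Col8a1, and Fbln1 before its other start), 2 held CCAAT (Col4a1 and Col9a1) and 1 held TATAAA.

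Genes that process, bind or remodel matrix were compared from fixed lists. Of 15 genes for folding, processing and cross-linking of collagen, 3 were called higher in colon than in the small intestine and 1 lower, beside 6.92% and 4.96% of all genes. Against duodenum none was higher and 1 was lower, and 1 was called by the F test. The collagen chaperone Serpinh1 averaged 343 ± 36.4 units in colon and 199 ± 74.5 in duodenum (0.79, adjusted p = 0.0662, not called, and 0.72 against the small intestine, adjusted p = 0.0316), and the hydroxylation factors Crtap and P4ha2 differed by 0.64 and 1.01 (adjusted p = 0.0235 and 0.0269). Bmp1, the proteinase that trims procollagen ends, was the lower one, at 50.1 ± 26.5 units in colon and 166 ± 53.3 in duodenum, with its highest mean in jejunum (297 ± 20.8; -1.61, adjusted p = 0.00140). Of 18 matrix receptors, 2 were higher and 1 lower, 3 in all where 11.9% of all genes were called. The integrin chains Itgav and Itgb1 were higher in colon (1.11 and 0.90, adjusted p = 0.000305 and 0.0159) and Itga3, part of a laminin receptor, was lower (-0.68, adjusted p = 0.0449).

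Of 13 remodelling genes, 1 was called in each direction against the small intestine, beside 6.92% of all genes higher and 4.96% lower. Timp3, a matrix-bound inhibitor of metalloproteinases, averaged 308 ± 39.4 units in colon and 94.6 ± 24 in duodenum (1.46 against the small intestine, adjusted p = 9.48e-05), and the metalloproteinase Mmp10 4.27 ± 2.63 and 51.6 ± 11.6 (-1.33, adjusted p = 0.00530). Of 22 other matrix genes, 3 were higher and 3 lower, beside the same shares of all genes. Periostin (Postn), a matrix protein of fibroblasts, was higher at 272 ± 39.7 units in colon and 18.6 ± 6.33 in duodenum (2.41, adjusted p = 5.49e-06), as were tenascin C (Tnc, 1.17, adjusted p = 0.00875) and the proteoglycan Ogn (1.24, adjusted p = 0.0210). The adhesion protein Tgfbi was lower at 298 ± 18 units in colon and 605 ± 66.4 in duodenum (-1.40, adjusted p = 1.04e-05), with its highest mean in ileum at 1257 ± 179. The basement membrane proteoglycan Agrn and Smoc2 were lower in colon (-0.72 and -0.58, adjusted p = 0.00267 and 0.0460). Npnt, an integrin ligand of basement membranes, was higher in ileum than in jejunum (1.62, adjusted p = 0.0199).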

How the data were processed

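Whole-segment total RNA of 12 pools was hybridised to 3 array sets. The deposited intensity values are linear, with a mean near 200 after trimming 2% at each end of every array, so the authors had scaled the arrays; their software is not given in the sources used here. Array duodenum 3 of set C has jejunum in its source name and was kept as duodenum by its title. From these values log2(intensity + 16) was computed, which shrinks differences of dim genes. Each array set was fitted in limma 3.58.1 (R 4.3.3) with 1 mean per segment and an intensity trend. The p-values of all 36701 probe sets, 198 controls left out, were adjusted together. Symbols came from the arrays' annotation (29131 probe sets with 1 symbol, 724 with several, 6846 with none).

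Members and lists were chosen with earlier results of these data known. Values are given for up to 10 called members per comparison, the brightest member of each class, chains of one molecule and the first 3 genes of each list by the F test. Other listed genes were named for their calls, after their values were seen. Precision is limited by having 3 arrays per segment and set. On simulated data, with 200 of 36701 probe sets shifted per size, 58.5% of log2 shifts of 2 and 13.5% of shifts of 1 were called for colon minus duodenum. In the real data 9.15% of genes were called in that comparison. The adjustment there is less strict, so the simulated shares may understate what could be called. Alternatives were offset, scaling, filter, trend, probe set, 18S class, replicate block and single pools left out.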

Additional observations from a re-analysis of the deposited data

How the results depend on the processing

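Of 30 calls of members, none changed direction except by choice of probe set. With the lower or upper of the middle probe sets, Lamb2 was -0.14 or -0.089 and Col9a1 (upper) 0.24 for colon minus duodenum, and Sparc (lower) was -0.039 against the small intestine and -1.11 for ileum minus jejunum. Calls that held under every alternative were 4 of 11 for colon minus duodenum (Col4a1, Dcn, Lamb3, Lum), 5 of 10 for colon minus small intestine (the same and Fbln1), Fbln1 in both jejunal comparisons and Dcn for colon minus ileum. Col4a1, Dcn and Lum have 1 probe set each, so the choice of probe set could not test their calls. With the lower middle probe set the counts were 7, 6 and, for ileum minus jejunum, 1. That last count was 1 after median centring, after quantile normalization and with the compared arrays alone, and 2 without the trend. Over all genes the counts in these settings were 525, 566, 261 and 445, in that order, beside 715 in the main fit. The 8 high-18S samples hold 1 jejunal and 1 ileal pool, assumed to vary like the other segments. Counts for these 2 segments among them rest on single pools and are not given. With the compared arrays alone colon minus ileum had 5 calls, and 857 over all genes beside 834 in the main fit. Leaving out 1 pool gave 8 to 12 calls for colon minus duodenum, 8 to 14 for colon minus small intestine, 1 to 1 for jejunum minus duodenum, 1 to 6 for ileum minus jejunum, 2 to 5 for colon minus ileum and 9 to 11 by the F test. Median centring put the median of all probe sets at -0.07 in place of 0.04 for colon minus small intestine. It put that median at -0.06 in place of 0.03 for colon minus duodenum and at 0.07 in place of -0.06 for jejunum minus duodenum. Over the 63 members the median for colon minus duodenum was then -0.01 and for colon minus small intestine 0.02. With dim probe sets left out, which keeps 38 members including any bright in 1 segment alone, these medians were 0.52 and 0.45, and with the lower middle probe set 0.07 and -0.01. The first was 0.26 without duodenum 2, 0.24 without colon 1 and 0.20 without colon 2, and the second 0.10 without colon 2. Causes were not tested.

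Samples with the same replicate number deviated together (correlation over 0.1) in only 5, 5 and 4 of 18 pairings on array sets A, B and C, and the numbers were not taken to pair samples. A replicate block gave 10, 10, 1, 4, 3 and 10 calls in the order above, without Col4a2 for colon minus duodenum (adjusted p = 0.0661) and Col6a3 for ileum minus jejunum (0.0596). One member probe set choice, a plain probe set where there is one, was added after seeing the data and gave 12, 11, 1, 5, 3 and 12. No setting confined to the compared arrays exists for colon minus small intestine or the F test.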
